A study of Mus musculus with 12 samples.

Results

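The miR-30 family was measured in quadriceps muscle of 6 wild-type mice (WT) and 6 cofilin-2 deficient mice (KO, genotype cofilin-2 null) of the strain C57Bl/6 at postnatal day 7. Its members were taken by name as mmu-miR-30a, mmu-miR-30b, mmu-miR-30c, mmu-miR-30d and mmu-miR-30e, which are 5 of the 1096 miRNA names on an array for the mouse miRNAs of miRBase version 17. Cofilin-2 is the muscle form of an actin-binding protein that turns over actin filaments. The methods give separate samples of each mouse, taken as 6 pairs of a KO mouse and a WT littermate, and do not say which sample numbers form a pair. The brightness of a probe, deposited as a normalized intensity on a linear scale, stood for the level of its miRNA, and an array intensity has no read count behind it. By the labels Cy5 was the dye of every WT array and Cy3 that of every KO array, and dye and genotype therefore cannot be told apart in any comparison between them. Cofilin-2 mRNA is not measured by a miRNA array, and the genotypes were not checked from these values.

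A miRNA pairs with messenger RNAs mostly through its seed, the bases 2 to 8 from the 5′ end, and lowers the output of the transcripts it pairs with. The miR-30 family is one of the widely expressed families of differentiated tissues. In the heart it is known to restrain the connective tissue growth factor gene, and in cultured muscle cells its level is known to rise as myoblasts differentiate. Each precursor is cut into a guide arm, which carries the family seed, and a passenger arm, marked by a star in the names of the array, which is usually degraded.

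The guide sequences are shown because they define the family and because they show how little separates the members that the probes have to tell apart. The RefSeq sequences used here covered 3 of the 5 members, and no sequence is printed for miR-30b and miR-30d. Capitals mark the seed.
miR-30a: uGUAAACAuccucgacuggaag
miR-30e: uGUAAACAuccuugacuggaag
miR-30c: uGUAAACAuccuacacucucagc
In the GRCm38.p6 build these lie at chr1:23272274-23272295 on the plus strand for miR-30a, at chr4:120772660-120772681 on the minus strand for miR-30e, and at chr1:23291714-23291736 (plus strand, Mir30c-2) and chr4:120769584-120769606 (minus strand, Mir30c-1) for miR-30c, which has a pair of precursor genes. miR-30a and miR-30e have 22 bases each and are identical at 21 of them. The exception, counted from 1 at the 5′ end with the base of miR-30a first, is C13U. miR-30c shares its first 12 bases with both and differs from each at 5 of the 22 positions compared. Their GC content was 45.5% for miR-30a, 40.9% for miR-30e and 43.5% for miR-30c. Whether the probe of one member also bound another member was not tested.

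In all, 6 precursor genes on 3 chromosomes give rise to the members, and they lie in neighbouring pairs. Mir30a neighbours Mir30c-2, Mir30e neighbours Mir30c-1 within the gene Nfyc, which encodes a subunit of a transcription factor, and Mir30b neighbours Mir30d, in each case with 0 annotated genes between them. The seed GUAAACA was found in 4 of the 1679 mature mouse names in the RefSeq table used (0.238%). That table had no entry for miR-30b and miR-30d, and the count does not cover them. The 4 names are the 3 members above and miR-384-5p, which is shown for the bases it shares with them.
miR-384-5p: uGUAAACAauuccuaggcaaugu
Past the 8 bases shared by all, miR-384-5p differs from the members, and on the array it was at 1 to 8 in the 12 samples, where the median miRNA of a sample was at 12 to 14. It was not tested.

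The summed intensities of the 12 samples lay between 594311 and 636136. The mean correlation with samples of the same genotype was lowest for KO1 at 0.848, against 0.907 to 0.970 for the other 11, and the log2 change of each member is therefore also given without KO1. Without KO1, 106 of the 370 miRNAs passed an unadjusted limma threshold of 0.05 in place of 72, and 49 passed the adjusted threshold in place of 5. Of the skeletal muscle miRNAs looked for, miR-206 was at 21266 to 29194 and miR-133a at 5151 to 11466 over all samples, while miR-208b and miR-499 were too dim to test. miR-1, named miR-1a on the array, was at 39535 to 71199. The markers of epithelium, neurons and liver did not exceed an intensity of 35 in any sample. KO and WT were compared with limma on log2 intensities over the 370 miRNAs that averaged 32 or more in intensity, and all 5 miR-30 members were among them. As the tissue is a mixture, fewer cells of a type and less RNA per cell cannot be told apart.

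All 5 members had a lower mean in KO than in WT, and for none of the 5 was the difference past the threshold of 0.05, adjusted or unadjusted, by limma. The background over all 370 was 19.5% at the unadjusted threshold in either direction, 9.73% at the same threshold and lower in KO, and 1.35% at the adjusted threshold, all by limma. The median log2 change of the members, KO minus WT, was -0.36, and that of all miRNAs tested was -0.08. A lower mean was common in these data, with 210 of the 370 (56.8%) lower in KO. Among the 127 other miRNAs whose mean intensity lay within the range of the members, 66.9% were lower in KO and the median log2 change was -0.18.

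**Figure D1:**
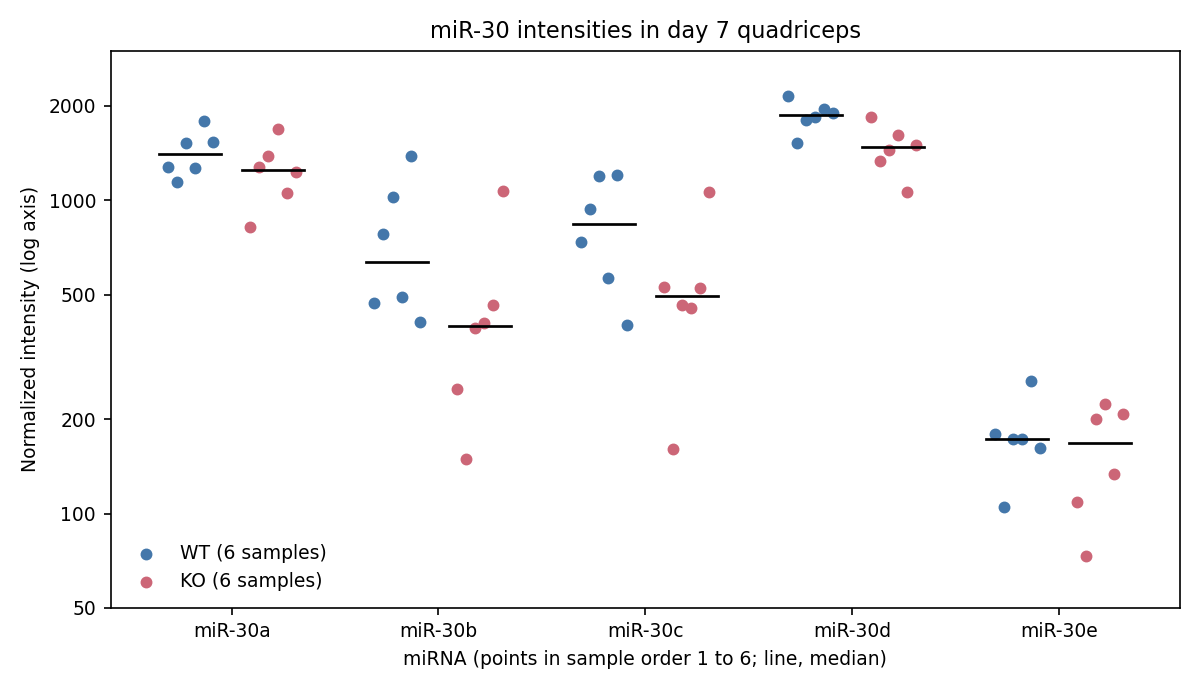
Normalized intensity (log axis) of each miR-30 member in the 6 WT and 6 KO samples; points are single samples in the order 1 to 6 and the line is the median of the group. miR-30a and miR-30d lie close together within each group, whereas miR-30b runs from 149 to 1074 and miR-30c from 161 to 1061 in KO.

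miR-30a, from the chromosome 1 pair, lay between 1142 and 1784 in WT (median 1399.5) and between 821 and 1692 in KO (median 1253). The WT mean was 1421 ± 236 (SD, n = 6), and the KO mean was 1243 ± 295 (SD, n = 6). The groups overlapped over most of their range, KO1 being the lowest sample and KO4 the highest of KO. limma gave a log2 change of -0.21 with a standard error of 0.208 (adjusted p = 0.655), and its 95% interval, as a ratio KO over WT, ran from 0.633 to 1.18. Without KO1 the log2 change was -0.10.

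miR-30e, which differs from miR-30a by a single base, was the dimmest member. It lay between 105 and 265 in WT (median 173) and between 73 and 223 in KO (median 167.5), with means of 176.3 ± 51.4 (SD, n = 6) and 158 ± 61.3 (SD, n = 6). WT2 and KO2 were its lowest samples, and 3 of the 6 KO samples lay above the median of WT. limma gave a log2 change of -0.21 with a standard error of 0.306 (adjusted p = 0.763), with a 95% interval for the ratio of 0.546 to 1.36. Single samples moved it widely, to -0.01 without KO2, -0.09 without WT5 and -0.13 without KO1, and to -0.35 without WT2 and -0.34 without KO4.

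miR-30c, the member with precursor genes on chromosomes 1 and 4, was more variable. It lay between 401 and 1202 in WT (median 837) and between 161 and 1061 in KO (median 494.5). WT averaged 839 ± 330 (SD, n = 6), while KO averaged 531.7 ± 293 (SD, n = 6). KO6, at 1061, lay within the upper part of the WT values, KO2 lay below all WT samples, and the other 4 KO samples were at 452 to 527. By limma the log2 change was -0.75 with a standard error of 0.405 (adjusted p = 0.327), a ratio of 0.595 with a 95% interval of 0.325 to 1.09. It was -0.44 without KO2, -0.99 without KO6 and -0.79 without KO1.

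miR-30b had the largest difference between the genotypes of the 5 members, at rank 16 among the falls of the 370 miRNAs. It lay between 408 and 1389 in WT (median 637) and between 149 and 1074 in KO (median 398), with means of 761.5 ± 387 (SD, n = 6) and 455 ± 324 (SD, n = 6). Here 4 of the 6 KO samples lay below every WT sample, KO5 lay within the lower WT values, and KO6 was above 5 of the 6 WT samples. By limma the log2 change was -0.86 with a standard error of 0.440 (adjusted p = 0.297), a ratio of 0.550 with a 95% interval of 0.285 to 1.06. Single samples moved it widely, from -0.59 without KO2 to -1.16 without KO6, and it was -0.74 without KO1. Without KO6 the unadjusted limma p was 0.0104 for miR-30b and 0.0220 for miR-30c, with adjusted values of 0.0932 and 0.149, in a fit where 22.4% of all miRNAs passed the unadjusted threshold. Leaving out WT6, the lowest WT sample of both, gave unadjusted limma values of 0.0473 and 0.0375, where 18.1% of all miRNAs passed.

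miR-30d, the neighbour of miR-30b in the genome, was the steadiest member. It lay between 1520 and 2155 in WT (median 1870.5) and between 1061 and 1845 in KO (median 1473.5). WT averaged 1862.5 ± 209 (SD, n = 6) and KO averaged 1467.5 ± 263 (SD, n = 6), a ratio of means of 0.788. All 6 KO samples lay below the WT median and 4 of them below every WT sample, while KO1 and KO4 reached into the WT range. limma gave a log2 change of -0.36 with a standard error of 0.182 (adjusted p = 0.297), with a 95% interval for the ratio of 0.595 to 1.02.

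Whether miR-30d passed an unadjusted threshold depended on the test. An equal-variance test of each miRNA by itself is called here the methods' t-test, although the methods name it for mRNA and give only a threshold for p for miRNAs. The unadjusted p for miR-30d was 0.0713 from limma, 0.0203 from the methods' t-test on log2 intensities and 0.0164 from it on linear ones, and the two-sided exact permutation test over all assignments of the samples gave 0.0195. On linear intensities the methods' t-test called 17.3% of all miRNAs tested at this threshold, and 1 of the 5 members, miR-30d. limma draws the variance of each miRNA towards that of the others, which raised the standard error of miR-30d from 0.129 to 0.182 and lowered that of miR-30b from 0.484 to 0.440. After adjustment over all miRNAs tested miR-30d was not past the threshold by this test on either scale, with adjusted p-values of 0.160 on log2 values and 0.151 on linear intensities. Without KO1 its log2 change was -0.43, with an unadjusted limma p of 0.0281 and an adjusted p of 0.116, in a fit where 28.6% of all miRNAs passed the unadjusted threshold and 13.2% the adjusted one. The exact permutation p-values of the other members were 0.104 for miR-30b, 0.117 for miR-30c, 0.255 for miR-30a and 0.511 for miR-30e. The groups overlapped for all 5 members, and 2.43% of the miRNAs tested had groups that did not overlap.

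**Figure D2:**
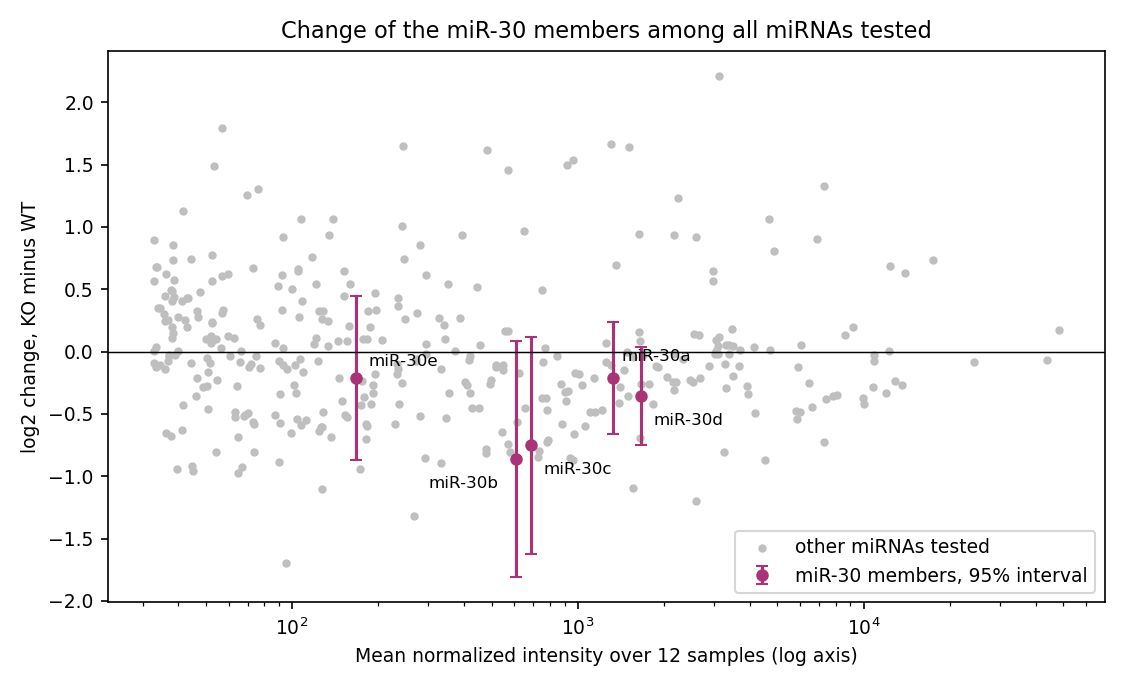
Log2 change, KO minus WT, against mean normalized intensity over 12 samples (log axis), with the miR-30 members and their 95% limma intervals in colour and the other miRNAs tested in grey. The 5 members lie below 0, from -0.86 for miR-30b to -0.21 for miR-30a and miR-30e, and each interval includes 0.

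The members differed in how much they varied among samples of the same genotype. With a single array per mouse, variation between mice and variation of the measurement cannot be told apart. The SD of the log2 intensity within genotypes was 0.22 for miR-30d and 0.30 for miR-30a, 0.54 for miR-30e, 0.76 for miR-30c and 0.84 for miR-30b. Of all miRNAs tested, 4.32% had a smaller SD than miR-30d and 13.2% a smaller one than miR-30a, but 75.9% had a smaller one than miR-30c and 81.6% a smaller one than miR-30b. The same held among the 127 other miRNAs of like brightness, of which 1 had a smaller SD than miR-30d, 4 than miR-30a, 90 than miR-30c and 98 than miR-30b. Within KO the highest sample exceeded the lowest 7.21-fold for miR-30b and 6.59-fold for miR-30c, against 1.74-fold for miR-30d. In WT the factor was 3.40 for miR-30b and 1.42 for miR-30d. The spread was thus wide in both genotypes for the same pair of members. This division of the family was seen in the values and was not chosen beforehand.

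Deviations of miR-30b and miR-30c went the same way in all WT samples and in KO2, KO5 and KO6. KO6 and WT5 were high and KO2 and WT6 low in both, while KO1 was low in miR-30b and slightly high in miR-30c. KO3 and KO4 lay near the KO mean with opposite signs, at 0.05 and 0.10 for miR-30b and -0.001 and -0.04 for miR-30c. On the log2 scale, KO6 lay 1.51 above the KO mean for miR-30b and 1.19 above it for miR-30c, and KO2 fell by 1.34 and 1.53 below it. miR-30e went the same way in these samples, with deviations of 0.50 in KO6 and -1.01 in KO2. For miR-30d the deviations of KO6 and KO2 were 0.05 and -0.11, and for miR-30a 0.02 and 0.07, so that these samples were not bright or dim in the whole family.

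**Figure D3:**
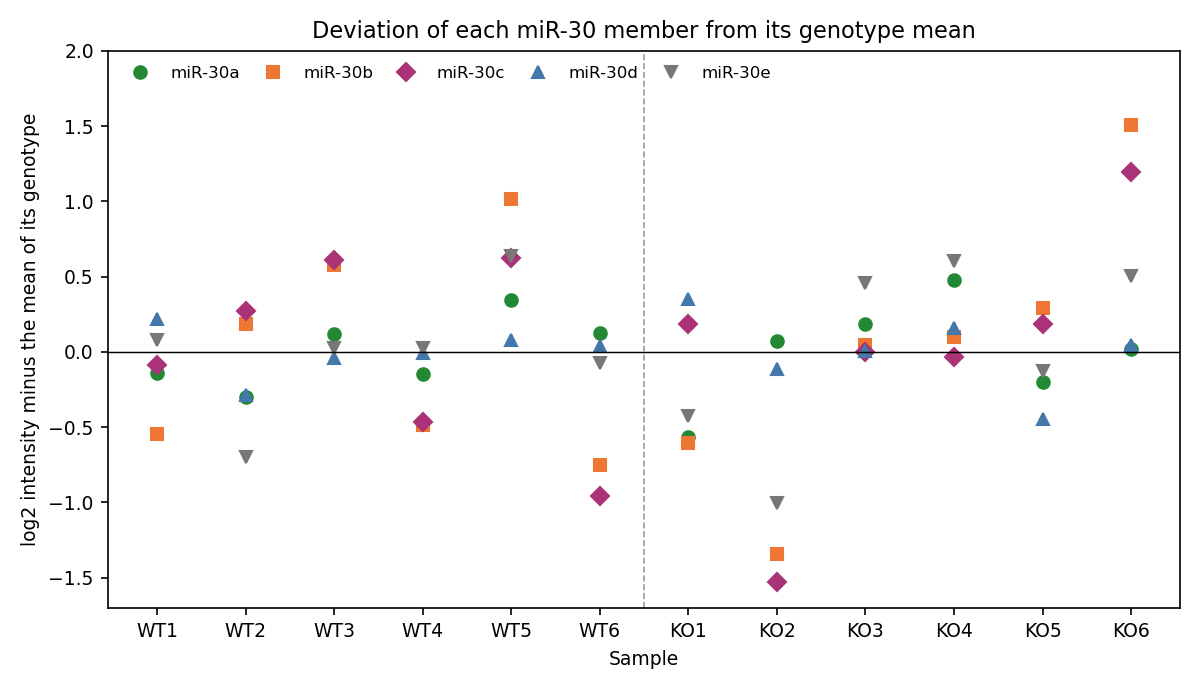
Log2 intensity of each miR-30 member minus the mean of its genotype, for each of the 12 samples, with WT to the left and KO to the right of the dashed line. miR-30b and miR-30c reach 1.51 and 1.19 in KO6 and -1.34 and -1.53 in KO2, and miR-30e reaches 0.50 and -1.01 in them. In KO6 and KO2 miR-30a and miR-30d stay near 0. Elsewhere miR-30a reaches -0.56 in KO1 and 0.48 in KO4, and miR-30d reaches -0.45 in KO5.

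Across the 6 WT samples the log2 intensities of miR-30b and miR-30c had a Pearson r of 0.91 (two-sided exact permutation p = 0.0153) and a Spearman rho of 0.94 (exact permutation p = 0.0167). Across the 6 KO samples r was 0.91 (exact permutation p = 0.0556) and rho was 0.60 (exact permutation p = 0.242). These were among 20 relations computed between members, 10 pairs in each genotype, and after Benjamini-Hochberg adjustment none of the 20 passed 0.05, the smallest adjusted value being 0.300 for r and 0.333 for rho. Leaving out the samples farthest from the median of miR-30b gave r = 0.85 in WT, without WT3 and WT5, and r = -0.36 in KO, without KO2 and KO6. In KO the relation therefore rested on KO2 and KO6.

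Over all 12 samples, with the mean of each genotype removed, the r of miR-30b with miR-30c was 0.91, which is a description with no test. miR-30c had rank 2 among the 369 other miRNAs tested in its likeness to miR-30b, and miR-30b had rank 3 in its likeness to miR-30c. Neighbours in the genome had lower values, with -0.13 for miR-30b and miR-30d, -0.03 for miR-30a and miR-30c, and 0.55 for miR-30e and miR-30c. miR-30a and miR-30e, which differ in a single base, had an r of 0.60. Of the other pairs, miR-30b and miR-30e were at 0.65, and the 4 that remain were between 0.06 and 0.33.

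**Figure D4:**
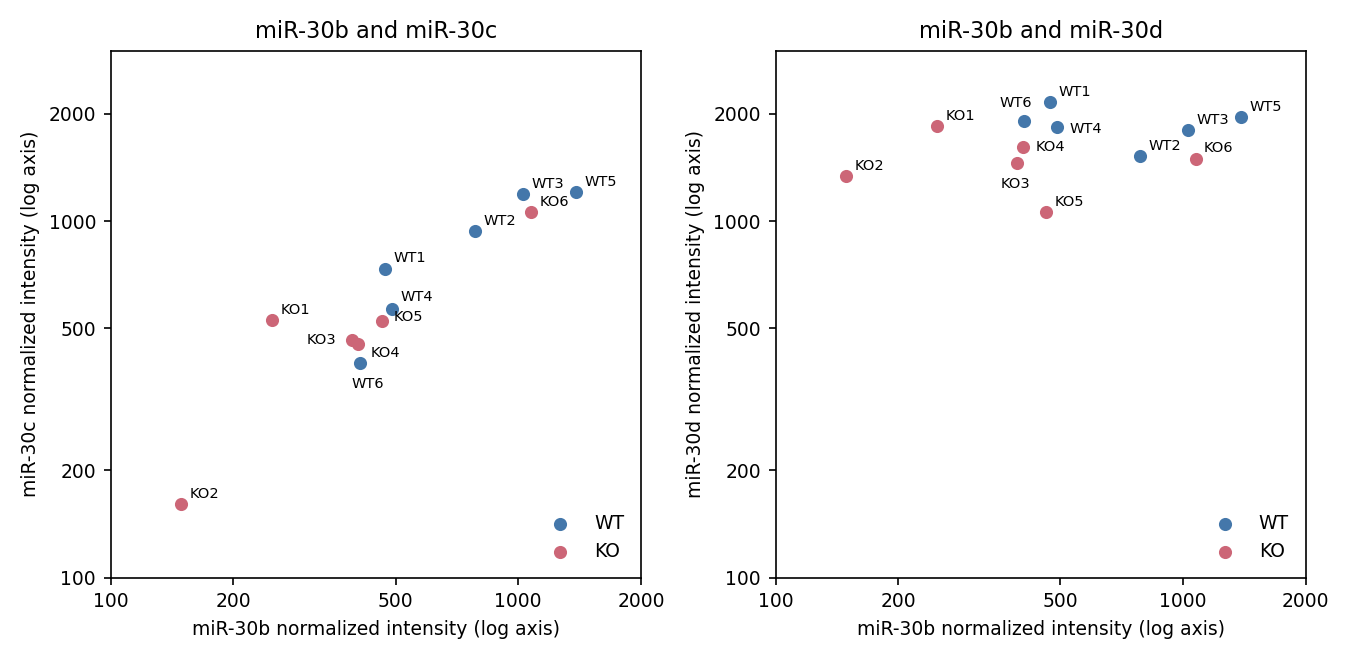
Normalized intensities (log axes) of miR-30b against miR-30c and of miR-30b against miR-30d in the 12 samples, coloured by genotype. miR-30b and miR-30c rise together from KO2 to WT5, whereas miR-30d stays between 1061 and 2155 over the whole range of miR-30b.

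Ratios between members compare them within a sample and do not move with a factor common to all miRNAs of the sample. None of the 10 ratios differed between KO and WT past 0.05 by a two-sided exact permutation test, adjusted or unadjusted, with unadjusted p-values of 0.104 to 0.989 and adjusted p-values of 0.664 to 0.989. The smallest unadjusted value belonged to miR-30b over miR-30e. The WT log2 ratio was 2.01 ± 0.685 (SD, n = 6) and the KO log2 ratio 1.37 ± 0.591 (SD, n = 6), a difference of -0.65 with a 95% interval of -1.47 to 0.18. The ratio of the neighbours miR-30b and miR-30d was, on the log2 scale, -1.43 ± 0.764 (SD, n = 6) for WT and -1.94 ± 1.01 (SD, n = 6) for KO, a difference of -0.51 with an interval of -1.66 to 0.65. This difference moved to -0.26 without KO2, -0.32 without KO1 or WT5, and -0.80 without KO6. For miR-30a over miR-30e the difference was 0.00 with an interval of -0.56 to 0.56. The intervals of miR-30a over miR-30d, -0.32 to 0.61, and of miR-30b over miR-30c, -0.56 to 0.33, also left room for unequal change. Ratios that hold miR-30b or miR-30c against another member had the widest intervals.

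The passenger arms of the 6 precursors were dim in all samples and none reached the mean intensity needed for a test, so that no ratio of guide to passenger arm was computed. The RefSeq sequences used here covered 4 of the 6, and a pair is shown because it mirrors the guides, with the bases 2 to 8 in capitals.
miR-30a*: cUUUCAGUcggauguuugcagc
miR-30e*: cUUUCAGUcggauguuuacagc
These lie at chr1:23272315-23272336 (plus strand) and chr4:120772618-120772639 (minus strand) in GRCm38.p6 and are also identical at 21 of 22 bases, the exception being G18A with the base of miR-30a* first. For miR-30a* the WT mean was 21.3 ± 9.63 (SD, n = 6) and the KO mean 27.3 ± 15.3 (SD, n = 6). Single values of miR-30a* ran from 8 to 50, of miR-30e* from 4 to 31 and of miR-30b* from 9 to 25. miR-30c-1*, miR-30c-2* and miR-30d* had values of 3 to 19, 7 to 22 and 3 to 10. The median miRNA of a sample was at 12 to 14.

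By the rule set for likeness, the 3 miRNAs outside the family closest to the mean of the 5 members were miR-379*, miR-20b and miR-181d, out of 365 compared. The members were not scaled before the mean was taken. The most variable of them, miR-30b and miR-30c, therefore weighed most in it. miR-379*, a passenger arm from the imprinted Dlk1-Dio3 region, had an r of 0.88 and a rho of 0.85 over the 12 samples after removal of the genotype means, and an r of 0.81 without KO2 and KO6. It was at 1115 in KO6 and at 175 in KO2, and it was also the miRNA closest to miR-30b among all tested, with r = 0.94. miR-20b, from a paralogue of the miR-17 cluster, had an r of 0.83 and a rho of 0.66, and an r of 0.64 without KO2 and KO6. miR-181d had an r of 0.83 and a rho of 0.68, and an r of 0.73 without KO2 and KO6. As the highest of 365 values these correlations carry no test, and the points share the normalization of each sample.

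Markers of vessels, blood, smooth muscle and skeletal muscle were set beside the members, and of the 80 relations between 8 markers and 5 members in 2 genotypes none passed 0.05 after adjustment. The smallest adjusted values were 0.333 for r, that of miR-126-3p with miR-30c in KO, and 0.222 for rho, that of miR-145 with miR-30a in KO. Of the endothelial pair, miR-126-3p was at 2230 to 4741 in WT and 760 to 2705 in KO, a log2 change of -1.20 (adjusted p = 0.0615 from limma), and miR-126-5p was at no more than 6. The 2 summed to 2233 to 4745 in WT and 765 to 2709 in KO. Within KO, miR-126-3p had an r of 0.92 with miR-30c (exact permutation p = 0.00417) and a rho of 0.94 (exact permutation p = 0.0167), and r was 0.83 without KO2 and KO6. Within WT its r with miR-30c was 0.85 (exact permutation p = 0.0417), which fell to -0.02 without WT4 and WT6, and rho was 0.66 (exact permutation p = 0.175). With miR-30b its r was 0.59 in WT and 0.71 in KO (exact permutation p = 0.226 and 0.107), and rho was 0.54 and 0.66 (exact permutation p = 0.297 and 0.175). Without the samples farthest from the median of miR-30b these r were 0.74 and -0.78.

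Of the 6 blood markers, 1 was bright enough to be tested. This was the red cell miRNA miR-451, at 43 to 417 in WT and 16 to 318 in KO, with KO2 lowest, and its log2 change was -0.94 (adjusted p = 0.497 from limma). The 6 summed to 102 to 475 in WT and 51 to 372 in KO. Within KO the r of miR-451 with miR-30c was 0.84 (exact permutation p = 0.0597) and rho was 0.89 (exact permutation p = 0.0333), and r was 0.69 without KO2 and KO6. Within WT it was 0.59 (exact permutation p = 0.200) and turned to -0.35 without WT4 and WT6, with a rho of 0.54 (exact permutation p = 0.297). With miR-30b the r of miR-451 was 0.55 in KO (exact permutation p = 0.236), which turned to -0.84 without KO2 and KO6, and 0.42 in WT (exact permutation p = 0.438), which became 0.80 without WT3 and WT5. The rho was 0.26 in KO and 0.49 in WT (exact permutation p = 0.658 and 0.356).

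Of the skeletal muscle miRNAs, miR-133a and miR-133b had a high r with miR-30c and miR-30b in WT, while miR-206 and miR-1a did not. Exact permutation p-values of r adjusted over the 80 relations were 0.426 for both with miR-30c. With miR-30b they were 0.533 for miR-133b and 0.602 for miR-133a. Both ordered the WT samples alike, from WT4 (5684 for miR-133a, 5297 for miR-133b) to WT3 (11466 and 10526). They are therefore not counted here as separate markers. Whether the probe of one also bound the other was not tested. With miR-30c, miR-133b had an r of 0.89 (exact permutation p = 0.0181) and a rho of 0.77 (exact permutation p = 0.103), and r was 0.86 without WT4 and WT6. miR-133a had an r of 0.87 with miR-30c (exact permutation p = 0.0278) and the same rho, and r was 0.78 without those samples. With miR-30b, r was 0.80 for miR-133b (exact permutation p = 0.0667) and 0.77 for miR-133a (exact permutation p = 0.0903), with a rho of 0.66 for each (exact permutation p = 0.175), and 0.76 and 0.74 without WT3 and WT5. Within KO the r of miR-133b was 0.17 with miR-30c and 0.42 with miR-30b (exact permutation p = 0.794 and 0.400), and that of miR-133a was 0.17 and 0.38 (exact permutation p = 0.789 and 0.467). For miR-206 the WT r was -0.17 with miR-30c and -0.53 with miR-30b (exact permutation p = 0.775 and 0.285). For miR-1a it was -0.27 and 0.13 (exact permutation p = 0.585 and 0.756). Within KO these were 0.15 and -0.25 for miR-206 and -0.35 and -0.10 for miR-1a (exact permutation p = 0.438 to 0.867). In KO miR-1a had a rho of -0.89 with miR-30c (exact permutation p = 0.0333). Whether these relations differed between the genotypes was not tested, nor was the part of vessels, blood or muscle fibres in the values of miR-30b and miR-30c.

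Other families expressed across many tissues had medians near that of the miR-30 members. Of all 370 miRNAs tested, 56.8% were lower in KO. An unadjusted limma p under 0.05 was found for 19.5% in either direction and for 9.73% lower in KO, and 1.35% passed after adjustment. In the let-7 family with miR-98, 8 of 9 were lower in KO, with a median log2 change of -0.37, and 4 of 9 had an unadjusted limma p under 0.05. In miR-26 with miR-103 and miR-107, 4 of 4 were lower, with a median of -0.49, and 2 of 4 passed. None of these 13 passed after adjustment over all miRNAs tested, as none of the miR-30 members did. The miR-29 family had values of at most 41 and was not tested. Whether the families differed from one another was not tested.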

How the data were processed

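Total RNA of quadriceps was profiled by a service provider on an array for the miRNAs of miRBase version 17. The authors deposited normalized intensities, linear and in whole numbers, as 1 table; the method of normalization, the background correction and the averaging of spots are not given in the sources used here. Groups were taken from the sample labels, and all 12 samples were used. The members and lists were chosen with earlier results of these data known. The division into steady and variable members was made after seeing the values.

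Values under 1, none of them in a member, were set to 1 before log2 was taken, and miRNAs averaging under 32 were left out. The genotypes were compared in R 4.3.3 by limma 3.58.1 (functions lmFit and eBayes, two-sided), with Benjamini-Hochberg adjustment over all 370 miRNAs tested and a threshold of 0.05; the methods name a p-value under 0.05 for miRNAs without a test, and the test they name for mRNA was used as an alternative. The fit was checked on simulated data. Exact permutation tests over samples were computed with numpy 2.4.6 and scipy 1.17.1, and intervals of ratio differences are 95% intervals from the pooled variance. Sequences and gene neighbours are those of RefSeq for GRCm38.p6. In the array's naming, unstarred miR-30 names were taken as the 5p and starred names as the 3p arm. Named miRNAs were the 5 members, the other arms, names that share their seed, and the 3 closest in pattern; miR-1a was added later. Alternatives were other floors, filters, normalizations, weights, tests, a replicate block and leaving out each sample. Ratios of guide to passenger arm were planned and not run, because no passenger arm passed the filter.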

Additional observations from a re-analysis of the deposited data

How the results depend on the processing

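No miR-30 member was past the unadjusted threshold of 0.05 in the fit reported. There was 1, miR-30d, with a pseudocount of 50 (18.9% of all miRNAs tested passed), with a mean intensity of at least 500, which left out miR-30e (31.2%), and by the methods' t-test, as named in the report, on log2 (19.5%) and linear values (17.3%). There were 2, miR-30b and miR-30d, after median centring (20.5%), and 3, miR-30b, miR-30c and miR-30d, with array weights (42.2%). Array weights were also the one setting with members past the adjusted threshold, 2 of 5, miR-30b (adjusted p = 0.0431 from limma) and miR-30c (adjusted p = 0.0435 from limma); they gave KO1 the lowest weight, 0.156, and called 115 of the 370 miRNAs in place of 5. With 1 sample left out the unadjusted count ran from 0 to 2, being 1 (miR-30d) without KO1, where 28.6% of all miRNAs passed, and 2 (miR-30b and miR-30c) without KO6 (22.4%) or WT6 (18.1%), and the adjusted count stayed 0. Ratios between members past the unadjusted threshold, 0 in the values reported, ran from 0 to 2 with a sample left out, 1 without KO1 and 2 without KO6, and no ratio passed after adjustment under any setting run.

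The direction of miR-30a, miR-30b, miR-30c and miR-30d was kept under all settings run, the scalings included. miR-30e turned from -0.21 to 0.0922 with array weights. The median log2 change of the members ran from -0.55, with a mean intensity of at least 500, to -0.25 after cyclic loess. The difference in the log2 ratio of miR-30a over miR-30e, 0.00212, turned to -0.0546 with a pseudocount of 50, to -0.00978 after cyclic loess, and ran from -0.214 to 0.0987 with a sample left out. That of miR-30b over miR-30c ran from -0.205 to 0.0446, the latter without KO1. The causes were not tested.

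With the replicate number as a block, 0 members passed either threshold, with adjusted p-values from limma of 0.278 for miR-30b and 0.315 for miR-30d. Of all 370 miRNAs, 89 (24.1%) passed the unadjusted threshold in place of 72, and 4 passed the adjusted threshold in place of 5. Deviations of same-numbered WT and KO samples correlated at -0.45 to 0.59, above 0.1 in 3 of 6 pairs. Of the 6 KO samples, 3 were closest to the WT sample of their own number. With so few samples this cannot decide whether the numbers mark littermate pairs. No label ties a number to a pair, and the main fit therefore left the numbers out. With 6 samples per group, the intervals given with each member show the range of changes compatible with its values. The smallest change that could have been detected was not computed.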

Other observations

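miR-30a ran closest to miR-1a, the most abundant muscle miRNA of the array, which was noticed after the values were seen. Among all 369 other miRNAs tested, miR-1a had the highest r with miR-30a over the 12 samples after removal of the genotype means, 0.85. Within KO the r was 0.90 (two-sided exact permutation p = 0.0222) and rho was 0.89 (exact permutation p = 0.0333), and within WT r was 0.72 (exact permutation p = 0.124) and rho was 0.66 (exact permutation p = 0.175). Without the samples farthest from the median of miR-30a, KO1 and KO4 in KO and WT2 and WT5 in WT, r was 0.49 and 0.52. After adjustment over the 80 relations between markers and members the p-values were 0.426 in KO and 0.659 in WT for r, and 0.533 and 0.820 for rho. Neither these nor the unadjusted values allow for the choice of miR-1a as the highest of 369 in the same samples. The relation is therefore a description and not a test. The other skeletal muscle miRNAs tested did not run with miR-30a. After removal of the genotype means, r with miR-30a was -0.71 for miR-206, -0.002 for miR-133a and 0.09 for miR-133b. For miR-206 it was -0.63 in WT and -0.76 in KO (exact permutation, adjusted p = 0.802 and 0.611). The smooth muscle miRNA miR-145 ran against miR-30a in KO, with an r of -0.94 (exact permutation p = 0.00972, adjusted p = 0.389) and a rho of -1 (exact permutation p = 0.00278, adjusted p = 0.222), and r was -0.89 without KO1 and KO4. In WT its r with miR-30a was -0.29 (exact permutation p = 0.586), which turned to 0.35 without WT2 and WT5, and rho was -0.31 (exact permutation p = 0.564). The relation was weaker for the other smooth muscle miRNA, miR-143. In KO its r with miR-30a was -0.39 (exact permutation p = 0.442) and rho was -0.03, and r turned to 0.74 without KO1 and KO4. In WT its r was -0.34 (exact permutation p = 0.503), which turned to 0.30 without WT2 and WT5, and rho was -0.09 (exact permutation p = 0.919). KO4 was the highest KO sample of both miR-1a and miR-30a, at 71199 and 1692.

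No single sample lay far enough from the others of its genotype to be singled out by Dixon's test. This was checked for 5 members in 2 genotypes, 10 groups in all, of which 0 exceeded the critical value of 0.625. The largest gap, 0.547 of the range, was that of KO2 in miR-30c.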
